A study of Mus musculus with 24 samples.

Results

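The replication-dependent histone genes of the mouse were examined in splenic B cells that were deficient in Tet2 and Tet3 or came from controls. They were taken by name alone, as the rows whose symbol begins with Hist1h, Hist2h, Hist3h or Hist4h, and 68 of the 23234 rows in each of 2 deposited RNA-seq tables met that rule. By histone they fall into 6 H1, 18 H2A, 19 H2B, 12 H3 and 13 H4 genes, of which 54 belong to the Hist1, 10 to the Hist2, 3 to the Hist3 and 1 to the Hist4 cluster. The cells were primary B cells of C57BL/6 mice, taken fresh from the spleen and sorted on CD93, a surface protein found on transitional, recently formed B cells among others. The libraries used form 4 groups of 3: Tet2/Tet3-deficient (DKO) CD93- cells, control CD93- cells, Tet2/Tet3-deficient CD93+ cells and control CD93+ cells. Tet2 and Tet3 encode enzymes that oxidise 5-methylcytosine in DNA. The labels give no age, no driver of the deletion, no genotype of the controls beyond that word, and no statement that the libraries of a group came from separate animals, so p-values measure the spread between these libraries, which may in part be technical.

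Replication-dependent histone genes supply the proteins that package newly copied DNA. H2A, H2B, H3 and H4 form the core of the nucleosome, and H1 binds the DNA between cores. Their genes lie in clusters, have no introns, and are transcribed mainly in S phase, when DNA is replicated. Most of their mRNAs end in a stem-loop instead of a poly(A) tail. A stem-loop-binding protein, encoded by Slbp, and the U7 particle with its cleavage factors make this end and so govern how long the mRNA lasts. Some cluster genes can also give polyadenylated mRNA, which persists in cells that are not dividing. In a lymphocyte, cluster histone mRNA is therefore mostly a property of cycling cells, whereas variants such as H3f3a, H3f3b and H2afz are made from single genes with introns and poly(A) tails. The sources used here do not say whether polyadenylated RNA was selected before the libraries were made.

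Many cluster genes of 1 histone differ at few coding bases, and this bears on every value below, because a read from such a stretch fits several genes. Coding bases 121 to 180 show it for the H2A genes whose values matter most here. The sequences are the coding strand, read from GENCODE transcripts of build GRCm38, and capitals mark bases that differ from Hist1h2ao.
Hist1h2ao (chromosome 13): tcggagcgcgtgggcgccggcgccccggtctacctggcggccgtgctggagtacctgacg
Hist1h2ag (chromosome 13): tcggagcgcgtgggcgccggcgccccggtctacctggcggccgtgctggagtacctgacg
Hist1h2ad (chromosome 13): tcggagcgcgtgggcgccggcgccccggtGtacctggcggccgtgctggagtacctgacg
Hist1h2ak (chromosome 13): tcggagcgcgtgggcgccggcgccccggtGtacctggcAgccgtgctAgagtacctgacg
Hist1h2aa (chromosome 13): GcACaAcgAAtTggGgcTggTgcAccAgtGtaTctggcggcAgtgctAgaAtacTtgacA
Hist2h2aa2 (chromosome 3): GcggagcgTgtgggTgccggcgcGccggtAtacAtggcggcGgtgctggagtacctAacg
Hist2h2ab (chromosome 3): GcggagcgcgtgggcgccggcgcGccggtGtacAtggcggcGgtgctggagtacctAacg
Hist2h2ac (chromosome 3): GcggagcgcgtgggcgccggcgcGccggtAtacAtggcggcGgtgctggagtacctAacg
Hist3h2a (chromosome 11): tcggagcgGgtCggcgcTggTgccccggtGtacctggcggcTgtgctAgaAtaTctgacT
H2afx (chromosome 9): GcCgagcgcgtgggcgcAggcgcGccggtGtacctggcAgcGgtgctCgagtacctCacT

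Within these 60 bases Hist1h2ag carries the letters of Hist1h2ao, Hist1h2ad differs at 1 base, Hist2h2aa2 at 8, Hist3h2a at 10 and Hist1h2aa at 19. H2afx, the gene of the H2A.X variant, lies outside the clusters and differs at 10. Over all H2A genes, a median of 83.3% of the coding windows of 50 bases occurred letter for letter in another cluster gene, with 100% in Hist1h2ao, Hist1h2ad and Hist1h2ag, 52.3% in Hist1h2ak, 24.1% in Hist2h2ab, 12.2% in Hist3h2a and 2.35% in Hist1h2aa. The medians of the other classes were 77.3% for H2B, 84.7% for H3, 70.3% for H4 and 10.9% for H1. The same coding sequence throughout was found in 4 pairs: Hist1h2ao with Hist1h2ap, Hist2h2aa1 with Hist2h2aa2, Hist1h2bq with Hist1h2br, and Hist1h4m with Hist1h4n.

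The values are FPKM, a level that divides the fragments of a gene by the length of its transcript and by the total mapped in its library. How the authors treated reads that fit several genes is not given in the sources used here. The table itself shows an uneven division: Hist1h2ap stood at or below 0.037 FPKM in all 12 libraries while Hist1h2ao, its coding twin, had the highest mean of all cluster genes. Hist1h4m was under 0.0001 FPKM in all CD93- libraries but control replicate 2, where it was at 1.92 FPKM. By contrast, Hist1h2bq and Hist1h2br differed by less than 0.01 FPKM in 11 of 12 libraries. Single-gene values are for this reason uncertain, and sums over a class are given beside them.

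In CD93- cells, H2A genes were higher with the deficiency, while the sums over H2B, H3 and H4 genes overlapped between the groups. The H2A genes together reached 404, 507 and 531 FPKM in DKO libraries, against 147, 167 and 159 FPKM in control libraries. Every DKO library lay above every control library, and the ratio of the means was 3.05. The sum over the 19 H2B genes was 25.6, 43.7 and 35.1 FPKM in DKO libraries and 42.8, 34.4 and 43.7 FPKM in control libraries. For the 13 H4 genes it was 43.5, 56.1 and 49.6 FPKM in DKO and 69.5, 36.1 and 32.3 FPKM in control libraries. The 12 H3 genes summed to 10.8, 12.6 and 10.8 FPKM in DKO and 18.7, 9.32 and 7.64 FPKM in control libraries. For H2B, H3 and H4 the ratios of the means were 0.86, 0.96 and 1.08, and control replicate 1 had the highest H3 and H4 sums of the 6 libraries. Control replicates 2 and 3 lay below every DKO library in the H3 and H4 sums. The overlap of these 2 classes therefore rests on control replicate 1, and a rise in them is not excluded.

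**Figure D1:**
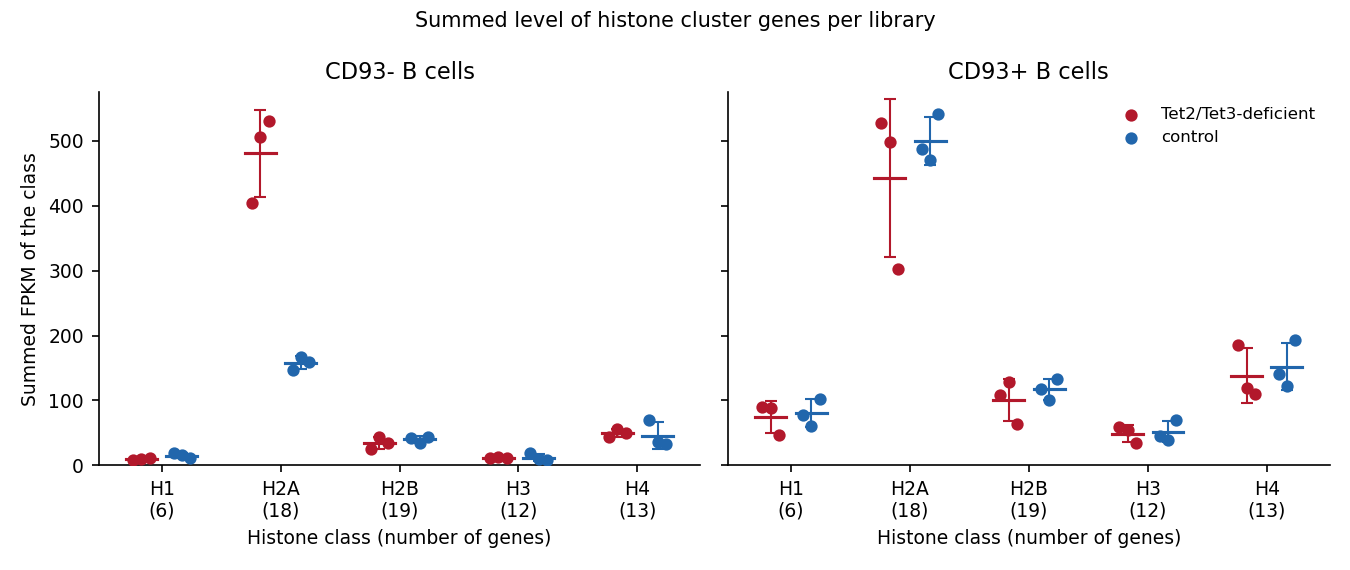
Summed FPKM of each histone class, with 1 point per library, the mean as a line and the SD as error bars (n = 3 per group), for CD93- cells on the left and CD93+ cells on the right. In CD93- cells the H2A sum separates the groups, at 404 to 531 FPKM in Tet2/Tet3-deficient libraries and 147 to 167 FPKM in control libraries, while the H2B, H3 and H4 sums overlap. For H3 and H4 the overlap rests on control replicate 1. In CD93+ cells all 5 classes overlap.

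The contrast between H2A and H2B, the partners that enter the nucleosome as a dimer, does not depend on how a library was scaled when it is read as a ratio within each library. H2A over H2B was 15.8, 11.6 and 15.1 in DKO CD93- libraries, against 3.44, 4.85 and 3.64 in control CD93- libraries. H2A made up 80.7% to 83.3% of all cluster histone FPKM in DKO and 49.6% to 63.7% in control CD93- libraries. In CD93+ cells the ratio of H2A to H2B was 4.86, 3.90 and 4.71 in DKO and 4.16, 4.64 and 4.05 in control libraries. The DKO CD93- libraries thus stood apart from the other 9 on this ratio. The ratio of H2B to H4 overlapped, at 0.589 to 0.778 in DKO and 0.616 to 1.36 in control CD93- libraries.

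Gene by gene, 48 of the 68 had at least 1 FPKM in at least 3 of the 6 CD93- libraries and were tested on log2(FPKM + 1) with limma, fitted over all 10960 genes that passed this filter. Among them 15, namely 14 H2A genes and 1 H4 gene, were higher in DKO cells at an adjusted p under 0.05 (Benjamini-Hochberg), in a comparison where 18.7% of all tested genes were. Another, an H1 gene, was lower, where 2.79% of all tested genes were. The 14 H2A genes include Hist1h2aa, which passed the filter through its DKO libraries alone. No H2B gene of 13 tested and no H3 gene of 5 tested passed, and 1 H2B and 0 H3 genes had an unadjusted p under 0.05. The median log2 change was 1.51 for the 17 tested H2A genes, -0.10 for H2B, 0.02 for H3 and 0.31 for H4, against 0.11 for all tested genes. After each library was rescaled to a common upper quartile, the median over all genes moved to -0.08, and 13 members were higher (17.1% of all genes) and 5 lower (23.8% of all genes), the lower ones being Hist1h1c, Hist2h2aa1, Hist2h2be, Hist2h3c2 and Hist4h4. Log2 changes on this scale understate those of genes with low FPKM. The 20 members under the filter comprised 5 H1, 1 H2A, 6 H2B, 7 H3 and 1 H4 genes.

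**Figure D2:**
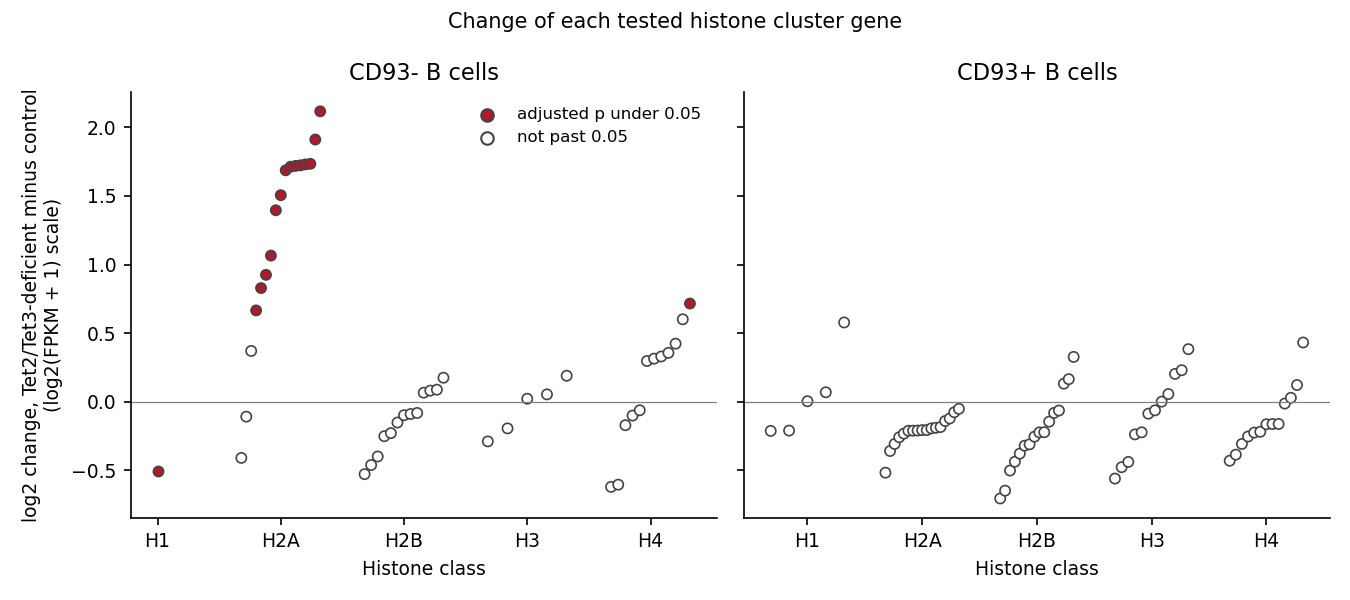
Log2 change on the log2(FPKM + 1) scale, Tet2/Tet3-deficient minus control, of each tested cluster gene, ordered by size within its class, for CD93- cells (48 genes) and CD93+ cells (63 genes). Filled points have an adjusted p under 0.05. In CD93- cells 14 of 17 H2A genes are filled and higher, 1 H4 gene is higher and 1 H1 gene lower, and in CD93+ cells no point is filled. The 14 include Hist1h2aa, which passed the filter through Tet2/Tet3-deficient libraries alone.

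The rise ran through the H2A genes of the Hist1 cluster, most of which encode canonical H2A proteins. All 12 that could be tested of 13 rose, with log2 changes of 0.93 to 2.12 and a median of 1.72. Among them, Hist1h2aa passed the filter through its DKO libraries alone. Hist1h2ao was at 91.1, 111 and 115 FPKM in DKO libraries, against 18.5, 25.7 and 27.4 FPKM in control libraries. The groups were far apart, and the log2 change was 2.12 ± 0.16 (SE, adjusted p = 2.81e-06). Hist1h2ag was at 44.3, 52.0 and 57.2 FPKM in DKO and 11.4, 13.4 and 13.7 FPKM in control libraries, a log2 change of 1.91 ± 0.14 (adjusted p = 1.77e-06). Hist1h2ad was at 37.7, 49.9 and 51.4 FPKM in DKO and 12.3, 13.8 and 13.2 FPKM in control libraries, a log2 change of 1.73 ± 0.14 (adjusted p = 5.4e-06). Hist1h2ah stood beside it, at 37.7, 48.4 and 50.3 FPKM in DKO and 12.01, 13.8 and 13.003 FPKM in control libraries, a log2 change of 1.73 ± 0.14 (adjusted p = 4.76e-06). In each of these 4 genes the lowest DKO library was DKO replicate 1, still above all controls. Hist1h2ai, Hist1h2an, Hist1h2af and Hist1h2ak had log2 changes of 1.69 to 1.72, and Hist1h2ab, Hist1h2ae and Hist1h2ac changed by 1.51, 1.40 and 1.07. All 12 remained called in each alternative setting in which they were tested.

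**Figure D3:**
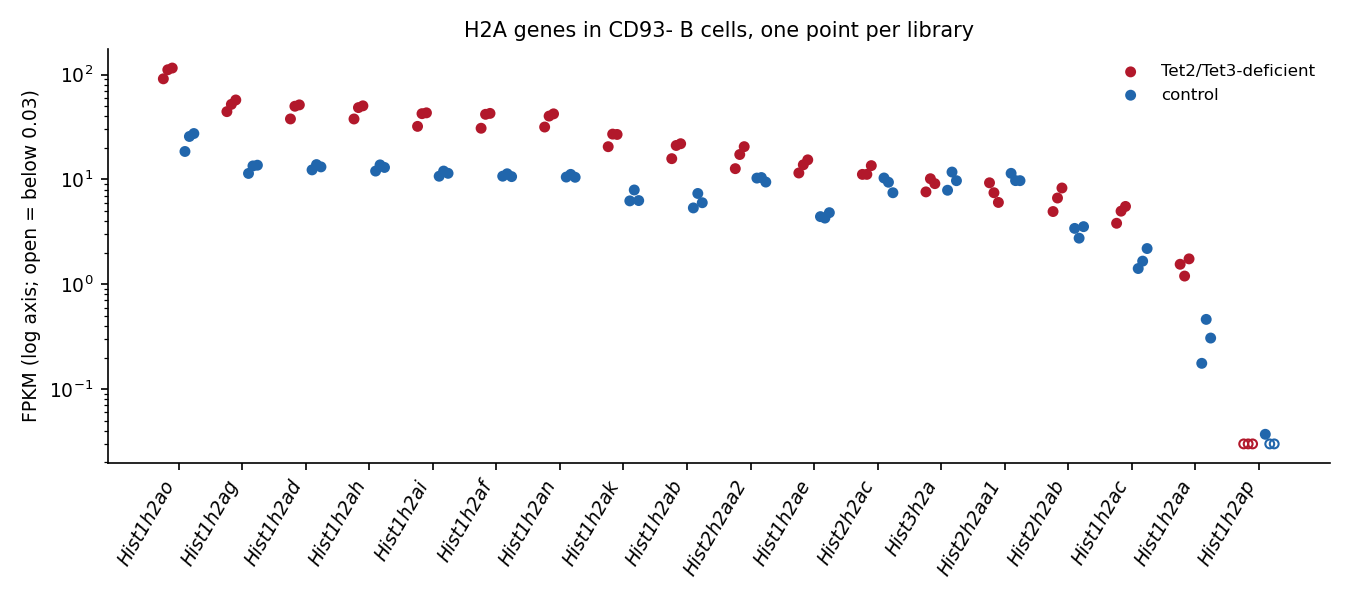
FPKM of the 18 H2A genes in the 6 CD93- libraries on a log axis, 1 point per library, genes ordered by their mean in Tet2/Tet3-deficient libraries. Tet2/Tet3-deficient points lie above all control points in 15 genes, whereas Hist3h2a overlaps, Hist2h2aa1 lies below and Hist1h2ap is near 0.

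Some of these genes also kept a nearly fixed proportion to each other. Relative to Hist1h2ad in the same library, Hist1h2af stayed between 0.808 and 0.880 over all 12 libraries, Hist1h2ah between 0.954 and 1.041, and Hist1h2an between 0.796 and 0.913. The largest of these ratios exceeded the smallest by a factor of 1.09 to 1.15. That factor was 1.16 for Hist1h2ai, 1.27 for Hist1h2ag, 1.335 for Hist1h2ab, 1.38 for Hist1h2ae, 1.496 for Hist1h2ak and 1.69 for Hist1h2ac. Hist1h2ao ranged between 1.498 and 2.41 relative to Hist1h2ad, a factor of 1.61, and Hist1h2aa had a factor of 4.23. The H2A genes outside the Hist1 cluster spanned factors of 2.38 to 7.90, a range in which Hist1h2aa also lies. How far shared reads set these proportions was not tested.

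Hist1h2aa stands outside that set by sequence, since 2.35% of its coding windows recur in another cluster gene, and it encodes an H2A known best from the testis. It was at 1.55, 1.20 and 1.75 FPKM in DKO libraries and 0.176, 0.462 and 0.307 FPKM in control libraries. Only its DKO libraries reached 1 FPKM, so it was tested only because it was high in that group. Its call is therefore not independent of the filter. The groups did not overlap, and the log2 change was 0.93 ± 0.17 (adjusted p = 0.00191). Its level was low, with a mean of 1.498 FPKM in DKO libraries where Hist1h2ao had 106 FPKM. The other genes of the testis type did not move with it: Hist1h2ba was at 0.457 to 1.06 FPKM in DKO and 0.461 to 0.759 FPKM in control libraries, and Hist1h1t, a linker histone, was listed at 0 in all 12 libraries.

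In 15 of the 17 tested H2A genes all DKO libraries lay above all control libraries, where 31.5% of all tested genes did so, and in Hist2h2aa1 all lay below, where 7.43% did so. Hist1h2aa is among the 15, and its separation follows from how it passed the filter. The Hist2 and Hist3 genes of H2A gave a mixed picture. Hist2h2ab, with low sequence sharing, was at 4.94, 6.65 and 8.28 FPKM in DKO and 3.41, 2.75 and 3.54 FPKM in control libraries, a log2 change of 0.83 ± 0.17 (adjusted p = 0.00478). Hist2h2aa2 was at 12.7, 17.3 and 20.5 FPKM in DKO and 10.3, 10.4 and 9.44 FPKM in control libraries, a log2 change of 0.67 ± 0.16 (adjusted p = 0.0122). The call of Hist2h2aa2 was lost without DKO replicate 3, with no filter, after upper-quartile rescaling or quantile normalization and with sample quality weights, at adjusted p up to 0.1905, and that of Hist2h2ab with sample quality weights (adjusted p = 0.0545). Hist2h2aa1, the coding twin of Hist2h2aa2, was at 9.28, 7.46 and 6.03 FPKM in DKO and 11.4, 9.74 and 9.73 FPKM in control libraries, so the pair differed in sign, with a log2 change of -0.41 for Hist2h2aa1 (adjusted p = 0.0859). Hist2h2ac was at 11.2, 11.2 and 13.5 FPKM in DKO and 10.3, 9.40 and 7.46 FPKM in control libraries (log2 change 0.37, adjusted p = 0.0988). Hist3h2a did not separate the groups, at 7.60, 10.2 and 9.11 FPKM in DKO and 7.88, 11.8 and 9.72 FPKM in control libraries (log2 change -0.11, adjusted p = 0.699). Summed over the 4 Hist2 genes, H2A stood at 38.1, 42.6 and 48.4 FPKM in DKO and 35.4, 32.3 and 30.2 FPKM in control libraries, a ratio of 1.32, against a ratio of 3.72 for the 13 Hist1 genes.

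**Figure D4:**
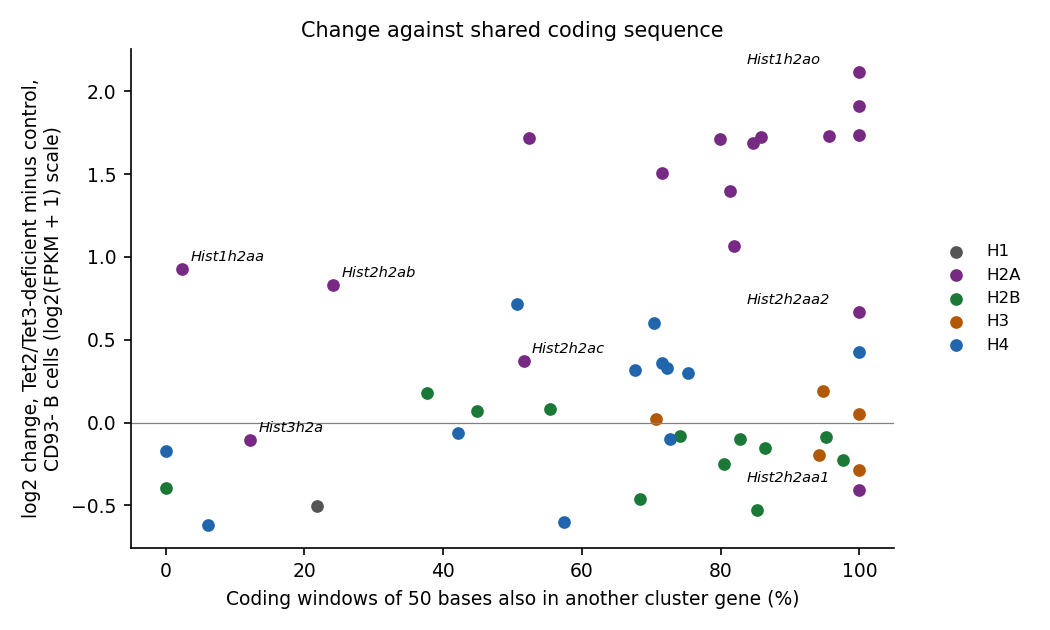
Log2 change in CD93- cells, Tet2/Tet3-deficient minus control on the log2(FPKM + 1) scale, of each tested gene against the percentage of its coding windows of 50 bases that occur in another cluster gene. Most H2A genes at 52.3% to 100% sharing lie high, and Hist2h2aa1 lies at -0.41 with 100% sharing. At lower sharing the H2A genes are mixed. Hist1h2aa (2.35%), which passed the filter through DKO libraries alone, lies at 0.93 and Hist2h2ab (24.1%) at 0.83. Hist3h2a (12.2%) lies at -0.11 and Hist2h2ac (51.6%) at 0.37. H2B and H3 genes lie between -0.53 and 0.19 at any sharing.

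Sequence shared with a gene outside the clusters was also counted. Of the 18 H2A genes, 16 had windows of 50 bases that occur in H2afx, and the median share was 15.6% of their transcript windows, while no H1, H2B, H3 or H4 gene had any. H2afx itself was at 49.1, 52.0 and 59.0 FPKM in DKO CD93- libraries, against 19.0, 26.2 and 26.2 FPKM in control libraries, a log2 change of 1.14 ± 0.15 (adjusted p = 0.000201). Hist1h2aa and Hist3h2a had no such windows. The part of H2afx reads in the H2A values was not tested.

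Linker histones went the other way in their sum. The 6 H1 genes together had 8.18, 8.99 and 11.1 FPKM in DKO and 18.7, 15.4 and 11.1 FPKM in control CD93- libraries, with DKO replicate 3 at the level of control replicate 3. Only Hist1h1c, the H1 gene with the highest level and one of the cluster genes whose mRNA can be polyadenylated, passed the filter. It was at 5.85, 6.97 and 9.29 FPKM in DKO and 11.6, 11.4 and 9.20 FPKM in control libraries. The groups overlapped by 1 library, and the log2 change was -0.50 ± 0.17 (adjusted p = 0.0489), a call that was lost on leaving out DKO replicate 1 or 2 or control replicate 1 or 2 (adjusted p = 0.0949 to 0.218), with a pseudocount of 0.1, with no filter, with no mean-variance trend and with sample quality weights. Hist1h1e, below the filter, was at 0.507, 0.576 and 0.450 FPKM in DKO and 3.17, 1.87 and 0.806 FPKM in control libraries, without overlap. Hist1h1b and Hist1h1a stayed at or below 1.31 FPKM in all 6 libraries.

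Of the H2B genes with the highest levels, none separated the groups. Hist3h2ba was at 3.44, 6.69 and 5.59 FPKM in DKO and 3.798, 5.34 and 4.14 FPKM in control CD93- libraries. Hist1h2bg was at 1.55, 2.82 and 3.71 FPKM in DKO and 6.19, 3.12 and 3.63 FPKM in control libraries (log2 change -0.53, adjusted p = 0.153). The members known to give polyadenylated mRNA, Hist1h2bc and Hist2h2be among H2B and Hist4h4 among H4, had log2 changes of -0.23, -0.40 and -0.17, none called with the authors' scaling. Hist2h2be was at 4.25, 4.76 and 3.78 FPKM in DKO and 4.18, 6.59 and 7.41 FPKM in control libraries. With Hist1h1c, the 4 summed to 17.6, 22.0 and 22.4 FPKM in DKO and 25.7, 29.4 and 26.9 FPKM in control libraries, with every DKO library below every control library.

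H3 and H4 genes were low in CD93- cells and varied between libraries. Hist2h3b, the highest H3 gene, was at 2.04, 2.85 and 1.66 FPKM in DKO and 4.198, 1.98 and 2.001 FPKM in control libraries. Hist1h3c, Hist1h3e and Hist1h3b ranged from 0.471 to 1.52 FPKM in DKO and from 0.199 to 2.01 FPKM in control libraries. Among H4 genes, Hist1h4f rose, at 2.68, 2.92 and 4.74 FPKM in DKO and 2.05, 1.73 and 1.24 FPKM in control libraries. Its log2 change was 0.72 ± 0.19 (adjusted p = 0.0194), and the call was lost without DKO replicate 3 (adjusted p = 0.0971) and after rescaling to a common upper quartile (adjusted p = 0.0817), and likewise after quantile normalization, with no filter and with sample quality weights. Hist1h4i, the highest H4 gene, was at 7.26, 14.1 and 11.4 FPKM in DKO and 7.68, 5.33 and 7.04 FPKM in control libraries (log2 change 0.60, adjusted p = 0.0566). Hist1h4c was at 3.05, 3.24 and 1.42 FPKM in DKO and 15.7, 2.49 and 1.496 FPKM in control libraries, so that 1 control library carried the control mean. Several H4 genes held the same value within a CD93- library, 18 of 77 nonzero values, for instance 1.42 FPKM for Hist1h4b, Hist1h4c and Hist1h4j in DKO replicate 3.

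The promoters allow neighbours to be set side by side, because many H2A and H2B genes of the Hist1 cluster start back to back from 1 shared region. By RefSeq start sites on build GRCm38.p6, 9 such divergent pairs lay 164 to 281 bases apart on chromosome 13. The window of Hist1h2ah, from 250 bases before its start to 50 after it, is shown because it spans the region that this gene shares with Hist1h2bk, 178 bases away, and that of Hist1h2ao because this gene changed most. Capitals mark 3 motifs, searched on both strands. The CCAAT box, which reads ATTGG on the other strand, is bound by the factor NF-Y. The TATA box was searched as TATAAA, which reads TTTATA on the other strand. The octamer was searched as ATTTGCAT, which reads ATGCAAAT on the other strand, and is the site of Oct1, encoded by Pou2f1, which is known for its part in H2B transcription in S phase.
Hist1h2ah, chr13:22035594-22035893, minus strand: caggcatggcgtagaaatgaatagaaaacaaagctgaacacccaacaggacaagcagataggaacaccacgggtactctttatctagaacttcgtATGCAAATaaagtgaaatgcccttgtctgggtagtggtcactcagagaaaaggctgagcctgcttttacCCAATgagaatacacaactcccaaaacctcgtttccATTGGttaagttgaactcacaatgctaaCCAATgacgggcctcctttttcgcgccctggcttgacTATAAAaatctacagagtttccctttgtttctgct
Hist1h2ao, chr13:21810117-21810416, plus strand: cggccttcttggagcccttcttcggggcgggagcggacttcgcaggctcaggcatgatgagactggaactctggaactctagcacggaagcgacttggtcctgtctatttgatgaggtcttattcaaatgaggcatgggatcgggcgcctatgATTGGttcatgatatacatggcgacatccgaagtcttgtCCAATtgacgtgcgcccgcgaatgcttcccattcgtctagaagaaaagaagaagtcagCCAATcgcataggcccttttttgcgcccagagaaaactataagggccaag

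A CCAAT box was present in 100% of the H1, H2A, H2B and H3 windows and 25% of the H4 windows, against 37.4% of all 32851 RefSeq windows. The octamer occurred in 41.2% of H2A and 41.2% of H2B windows, in no H1, H3 or H4 window, and in 1.74% of all windows. TATAAA occurred in 64.7% of H2A, 47.1% of H2B and 13.6% of all windows. H2A and H2B windows thus held the CCAAT box and the octamer in the same shares. In the 9 divergent pairs the windows of both genes overlap and were searched on both strands. Equal shares are therefore in part built in, and they do not compare separate promoters. No member window had boxes of different kinds that overlapped. A window was found for 61 members.

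In all 9 pairs the H2A gene had the larger log2 change in CD93- cells, at 0.93 to 2.12 with a median of 1.72, whereas the H2B partners had changes of -0.53 to 0.10 with a median of -0.10. These H2A genes share much of their coding sequence, Hist1h2aa excepted, so the pairs are not independent observations. Hist1h2aa passed the filter through its DKO libraries alone. The log2(FPKM + 1) scale also understates changes of H2B partners with low FPKM. In the pair shown, Hist1h2ah was called, and Hist1h2bk was at 1.19, 2.66 and 1.94 FPKM in DKO and 2.51, 1.29 and 2.53 FPKM in control libraries (adjusted p = 0.829). Of the 9 H2B partners 6 passed the filter, and none of these was called. Hist1h2bq, the partner of Hist1h2ao, was under the filter, at 0.312 to 0.393 FPKM in DKO and 0.243 to 0.570 FPKM in control libraries. In CD93+ cells both sides of the pairs lay close to each other, with H2A changes of -0.21 to -0.05 and H2B changes of -0.65 to 0.33.

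**Figure D5:**
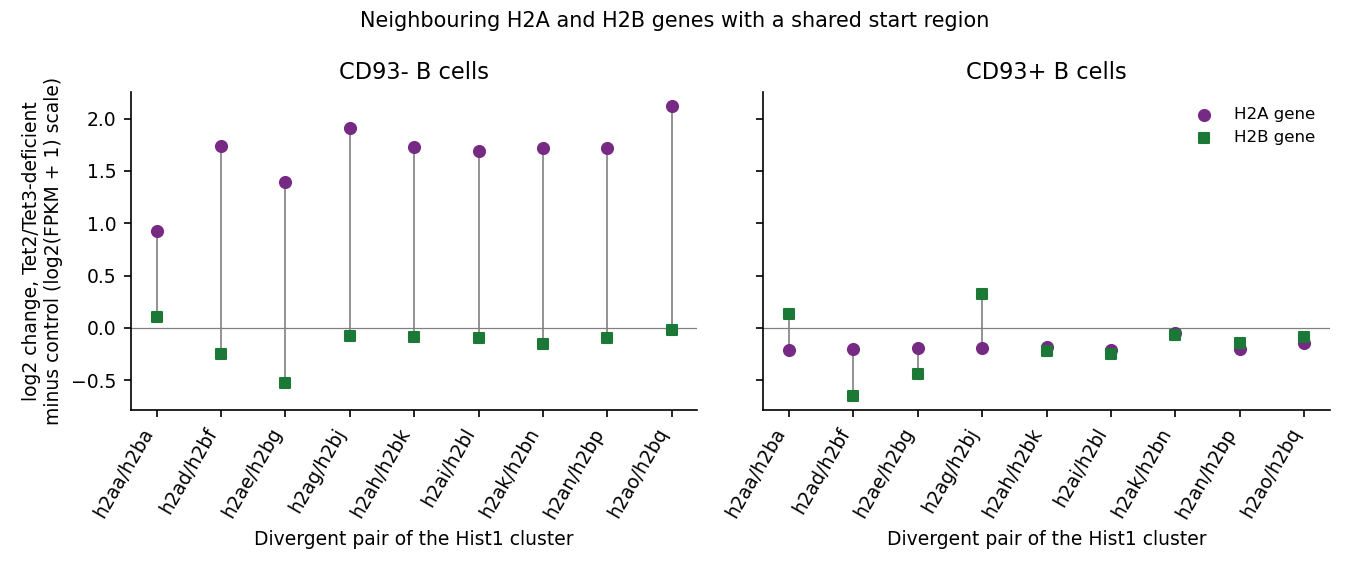
Log2 change, Tet2/Tet3-deficient minus control on the log2(FPKM + 1) scale, of the H2A gene (circle) and the H2B gene (square) of 9 divergent pairs of the Hist1 cluster, for CD93- cells on the left and CD93+ cells on the right. In CD93- cells each H2A gene lies above its H2B neighbour, by 0.82 to 2.13, and in CD93+ cells the 2 sides lie within 0.52 of each other. The H2A genes share much of their coding sequence, Hist1h2aa excepted, so the pairs are not independent observations.

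Other genes of histone supply in CD93- cells were taken from lists of known function. Their counts, and those of the cell cycle and marker lists after them, stand against 18.7% of all tested genes called higher and 2.79% called lower. Of 9 tested histone variants outside the clusters, 6 rose and none fell, with a median log2 change of 0.58. H2afz, the gene of H2A.Z, was at 164, 169 and 194 FPKM in DKO and 65.2, 87.5 and 80.6 FPKM in control libraries (log2 change 1.17 ± 0.14, adjusted p = 0.000117). H1f0, a linker histone made outside S phase, was at 7.78, 6.92 and 6.71 FPKM in DKO and 1.995, 3.21 and 1.986 FPKM in control libraries (log2 change 1.28 ± 0.16, adjusted p = 0.000155). The genes of H3.3 did not separate the groups: H3f3a had a log2 change of -0.04 (adjusted p = 0.887) and H3f3b of 0.11 (adjusted p = 0.663). Of 17 tested factors of histone mRNA synthesis and processing, 4 rose and 1 fell, so the share that rose was near that of all genes. Slbp was at 45.2, 44.9 and 49.98 FPKM in DKO and 24.8, 33.4 and 32.4 FPKM in control libraries (log2 change 0.62 ± 0.14, adjusted p = 0.00784). Npat, the coactivator of cluster histone transcription, had a log2 change of 0.23 (adjusted p = 0.319), and Pou2f1 fell by 0.45 (adjusted p = 0.0353). The call of Pou2f1 was lost with no filter and on leaving out any library but control replicate 1 (adjusted p = 0.0828 to 0.130). Of 19 chaperone and assembly genes 9 rose, among them Chaf1a, the large subunit of the CAF-1 assembly factor, with a log2 change of 1.45 ± 0.16 (adjusted p = 5.26e-05), and Hat1, which acetylates new H4, with 0.96 ± 0.16 (adjusted p = 0.000899).

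Genes of the cell cycle were higher as well. Of 25 S-phase genes 22 rose, with a median log2 change of 1.03, and of 20 genes of G2 and mitosis 20 rose, with a median of 1.59. The S-phase genes summed to 605, 627 and 636 FPKM in DKO and 257, 346 and 342 FPKM in control CD93- libraries, a ratio of 1.98. These sums stood above control in the same libraries as the H2A sum, with the H2B, H3 and H4 sums overlapping, for H3 and H4 through control replicate 1 alone. Fewer cells with a transcript and less transcript per cell cannot be told apart in bulk samples such as these, so the values do not say how many cells were in S phase.

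Markers of other cells moved in the same comparison. Of the 5 plasma cell markers tested 3 rose, and the 6 listed summed to 321 to 359 FPKM in DKO and 68.4 to 96.0 FPKM in control CD93- libraries. Of the 6 red cell precursor markers tested 4 rose (2 after upper-quartile rescaling), with sums over the list of 10 at 160 to 213 FPKM in DKO and 37.8 to 77.5 FPKM in control libraries. Of 10 T cell markers 5 rose, with sums of 59.8 to 65.6 FPKM in DKO and 32.3 to 53.0 FPKM in control libraries. Per 1000 of the library's summed FPKM, the T cell sums overlapped, at 0.133 to 0.149 in DKO and 0.0942 to 0.145 in control libraries. The plasma cell and red cell precursor sums did not overlap on that scale. No marker on these lists was at 0 in all 6 libraries. B cell markers were high in both groups, 3714 to 3879 FPKM in DKO and 3462 to 4307 FPKM in control libraries over 8 genes. The part of these cells in the histone values was not tested.

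The targeted genes do not check the labels here, because FPKM covers the whole transcript and the part removed is not given in the sources used here. Tet2 was at 9.94, 8.15 and 9.40 FPKM in DKO and 6.36, 8.11 and 8.79 FPKM in control CD93- libraries (adjusted p = 0.336), and Tet3 was at 15.7, 15.6 and 14.9 FPKM in DKO and 14.8, 20.1 and 19.0 FPKM in control libraries (adjusted p = 0.360). In CD93+ cells Tet3 was at 9.92, 7.67 and 3.84 FPKM in DKO and 12.1, 13.01 and 14.1 FPKM in control libraries, without overlap (adjusted p = 0.222). The summed FPKM over all rows ran from 424032 to 463987 in DKO and from 342368 to 394709 in control CD93- libraries. In CD93+ cells, the sum was 309359 in DKO replicate 3 and between 523898 and 597968 in the remaining 5 libraries. By Xist and Ddx3y, all 6 CD93- libraries had the male pattern, whereas the 3 DKO CD93+ libraries and control replicate 3 had the female and control replicates 1 and 2 the male pattern, so sex and genotype overlap in part in that comparison. Cd93 was at 27.98 to 50.5 FPKM in DKO and 50.9 to 59.9 FPKM in control CD93+ libraries, and at 3.32 to 4.65 FPKM in all CD93- libraries.

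In CD93+ cells no cluster gene of 63 tested passed the limma test at an adjusted p of 0.05 in either direction, where 1.67% of all 11250 tested genes were higher and 1.54% lower, and 3 of the 63 had an unadjusted p under 0.05. The H2A sum was 527, 498 and 302 FPKM in DKO and 487, 470 and 541 FPKM in control libraries, with DKO replicate 3 the lowest of the 6. Per 1000 of the library's summed FPKM, the H2A sum was 0.904 ± 0.0648 in DKO and 0.890 ± 0.0695 in control libraries (SD, n = 3 each), and DKO replicate 3 no longer stood apart. Hist1h2ao was at 82.1, 74.2 and 45.2 FPKM in DKO and 69.7, 73.0 and 72.9 FPKM in control libraries (log2 change -0.14 ± 0.41, adjusted p = 0.926). Its standard error was larger than in CD93- cells, so changes well above 0.41 could also go uncalled in this comparison. Among members, the log2 change of -0.70 in Hist1h2bh was not called. The absence of calls therefore does not show that levels were equal. After rescaling to a common upper quartile, which moved the median over all genes to -0.01 as against -0.22 with the authors' scaling, its log2 change was 0.10.

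The other classes overlapped too. Hist1h1c was at 66.6, 71.0 and 35.3 FPKM in DKO and 65.4, 48.3 and 82.6 FPKM in control CD93+ libraries. The largest increases and decreases among members were those of Hist1h1a, at 9.34, 5.88 and 4.01 FPKM in DKO and 2.67, 4.21 and 4.61 FPKM in control libraries (log2 change 0.58, adjusted p = 0.473), and Hist1h2bh, at 4.28, 6.87 and 4.15 FPKM in DKO and 10.4, 7.43 and 8.61 FPKM in control libraries (log2 change -0.70, adjusted p = 0.357). After rescaling to a common upper quartile, Hist1h1a (log2 change 0.79, adjusted p = 0.0427) and Hist1h3c (0.41, adjusted p = 0.0320) were called higher, where 11.3% of all tested genes were, and Hist3h2a lower, where 9.30% were. Red cell precursor markers summed to 12622, 13393 and 3026 FPKM in DKO and 57121, 48733 and 13123 FPKM in control CD93+ libraries. Of these 10 markers 6 fell, and 0 of 10 were called after upper-quartile rescaling, without DKO replicate 3 or with sex as a covariate. Plasma cell markers summed to 844 to 1451 FPKM in DKO and 146 to 200.2 FPKM in control CD93+ libraries, a ratio of 6.74, and 3 of 5 tested rose. Neutrophil markers summed to 446 to 1402 FPKM in DKO and 1606 to 2237 FPKM in control libraries, and 2 of 8 tested fell. The part of these cells in the histone values was not tested in CD93+ cells. With the authors' scaling, H1fx was the 1 gene called, and lower, among 10 tested variants, and no S-phase gene of 25 and no G2 or mitotic gene of 20 was called (1 and 0 at an unadjusted p under 0.05). After upper-quartile rescaling 7 S-phase and 2 G2 or mitotic genes were called higher, and 1 S-phase gene was without DKO replicate 3. Per 1000 of the summed FPKM, the S-phase genes had 2.70 to 3.19 in DKO and 2.35 to 2.38 in control CD93+ libraries, without overlap.

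The change in CD93- cells was then set against that in CD93+ cells in a single limma fit over the 12 libraries, for 10446 genes tested in both tables. The difference was positive at an adjusted p under 0.05 for 12 of the 48 members in that fit, where 2.27% of all genes were, and all 12 were H2A genes of the Hist1 cluster. It was negative for 0 members, where 0.0862% of all genes were. Hist1h2ao had the largest, 2.26 ± 0.38 (SE, adjusted p = 0.00149). After upper-quartile rescaling within each table the count was 11 of 48, where 4.12% of all genes were positive. The 12 called with the authors' scaling include Hist1h2aa, which passed the filter in CD93- cells through its DKO libraries alone. The tables were scaled separately, and each change was taken within its own table. The fit had no term for sex, which overlaps in part with genotype in CD93+ cells. It also used a common variance per gene for both tables, so the SE of Hist1h2ao is smaller than that of its change in CD93+ cells alone.

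Levels in the populations are given side by side with no test, since the tables were scaled separately. As a share of the library's summed FPKM, cluster histones made up 0.152% to 0.180% in DKO and 0.146% to 0.184% in control CD93+ libraries, and 0.116% to 0.139% in DKO and 0.0664% to 0.0867% in control CD93- libraries. H2A had 1.07 ± 0.106 per 1000 in DKO and 0.429 ± 0.00587 in control CD93- libraries (SD, n = 3 each), so the DKO CD93- libraries reached the share of H2A seen in CD93+ cells. For H1 the values were 0.151 ± 0.000590 per 1000 in DKO and 0.142 ± 0.0348 in control CD93+ libraries, and 0.0210 ± 0.00247 in DKO and 0.0413 ± 0.0123 in control CD93- libraries. H2B, at 0.0777 ± 0.0183 per 1000 in DKO CD93- libraries, also remained far from the 0.203 ± 0.0192 of DKO CD93+ libraries. Hist1h1c was the highest H1 gene in both populations, and Hist1h2ao the highest cluster gene in all libraries but control CD93+ replicate 3.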

How the data were processed

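A strand-specific kit was used to make the libraries from total RNA, per the labels' protocols. Build mm9, TopHat2 2.0.8, Bowtie2 2.1.0 and Cufflinks 2.1.1 are named in the submitters' processing notes, with no roles. The authors deposited FPKM values, 1 column per library, in 2 tables of 23234 genes, and 6 further value columns, which repeat others, were not used. Annotation, multi-mapping and strand settings are not given in the sources used here. Because FPKM values keep no counts, library depth is unknown and no counting interval is given. Of 24 labelled samples, 12 were used and 12 were not analysed here.

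The members and lists were chosen with earlier results of these data known. Genes that reached 1 FPKM in 3 or more of the 6 libraries were tested in each table alone with limma 3.58.1 in R 4.3.3 (lmFit, eBayes with trend) on log2(FPKM + 1), two-sided, with Benjamini-Hochberg adjustment over all tested genes and a threshold of 0.05. This was tested on simulated data. Every member was accounted for. Values per library were planned for the 4 highest members of each class, the 3 largest called changes, the polyadenylated members and up to 4 called genes of each list. Other members given by library were chosen after their values were seen. Alternatives were other pseudocounts, filters, scalings, variance models, a replicate block, and each library left out. Sharing was counted in GENCODE transcripts of GRCm38, for all 68 members, and promoter windows came from RefSeq (GRCm38.p6). These builds differ from that of the tables, so coordinates belong to the reference alone.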

Additional observations from a re-analysis of the deposited data

Results flagged for a closer look

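The log2 change with the deficiency differed between CD93- and CD93+ cells in 12 members, all H2A genes of the Hist1 cluster, by limma's test of the difference itself. The difference, change in CD93- cells minus change in CD93+ cells, was 2.257 for Hist1h2ao (adjusted p = 0.00149), 2.105 for Hist1h2ag (0.00154), 1.94 for Hist1h2ad (0.00297), 1.93 for Hist1h2an (0.00283), 1.922 for Hist1h2af (0.00305), 1.914 for Hist1h2ah (0.00297), 1.898 for Hist1h2ai (0.00353) and 1.77 for Hist1h2ak (0.00334). It was 1.738 for Hist1h2ab (adjusted p = 0.00356), 1.585 for Hist1h2ae (0.00655), 1.373 for Hist1h2ac (0.0152) and 1.136 for Hist1h2aa (0.0296). These genes share much of their coding sequence, Hist1h2aa excepted, so they are not independent observations. Hist1h2aa passed the filter in CD93- cells through its DKO libraries alone. The test was added after the data were seen. It had no term for sex, which overlaps in part with genotype in CD93+ cells, and it used a common variance per gene for both tables.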

How the results depend on the processing

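In CD93- cells the count of members called higher was 15, and 12 to 16 under all alternatives, of which H2A genes were 14, and 11 to 15. Leaving out 1 library gave 13 to 16 members and 13 to 15 H2A genes. The count called lower was 1, but 0 with a pseudocount of 0.1, no filter, no mean-variance trend or sample quality weights, 3 after quantile normalization, 5 after upper-quartile rescaling, and 0 to 2 with 1 library left out. The log2 ratio of the summed FPKM was 1.11, 1.41 over members passing a filter of 5 FPKM, 0.87 after upper-quartile rescaling, and 1.05 to 1.22 with 1 library left out. In CD93+ cells the count higher was 0, but 2 after upper-quartile rescaling, 1 after quantile normalization, 1 with sample quality weights and 1 after upper-quartile rescaling without DKO replicate 3. The count lower was 0, but 1 after upper-quartile rescaling, 1 with sample quality weights, and 0 to 1 with 1 library left out, the 1 arising without DKO replicate 1. The log2 ratio of the sum was -0.16, and -0.32 to 0.04 with 1 library left out, so its sign rests on DKO replicate 3. A fit with sex as a covariate, added after the data were seen because the DKO CD93+ libraries hold 1 sex, called 0 members.

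With the replicate number as a block, 16 members were higher and 6 lower in CD93- cells, and 0 and 0 in CD93+ cells. Nothing in the labels says that the numbers pair the libraries. Deviations of same-numbered libraries correlated at 0.02, -0.11 and -0.09 in CD93- and 0.17, -0.11 and -0.14 in CD93+ cells. Those of different-numbered libraries ran from -0.31 to 0.34 in CD93+ cells. With 3 libraries per group, deviations from a group mean depend on each other, so these correlations cannot decide whether libraries were paired. Reversed signs arose for H3f3b in CD93- cells after quantile normalization (log2 change -0.20), for Chaf1a in CD93+ cells after upper-quartile rescaling (0.22) and quantile normalization (0.24), and for Xist with sex as a covariate (-1.04). For the scalings the cause was not tested. Over all genes the split of higher to lower calls was 2045 to 306 in CD93- and 188 to 173 in CD93+ cells, but 1869 to 2608 and 1275 to 1046 after upper-quartile rescaling. Pseudocounts, variance models and the block do not apply to sums of FPKM. Unknown depth and shared reads limit all single-gene values, and 3 libraries per group limit the precision.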
